A study of Homo sapiens with 12 samples.

Results

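The keratins are described here in human prostate cancer cells that were selected for resistance to docetaxel, a taxane that stabilises microtubules, and in the cells from which they came. Members were the probe sets present in both deposited value tables whose only annotated gene symbol was KRT followed by a number and at most 1 letter. This gave 36 probe sets of 32 genes, out of 22215 probe sets in both tables and 11939 genes. The 4 groups were DU145 and 22Rv1, the docetaxel-sensitive parental lines, and DU145-DR and 22Rv1-DR, the docetaxel-resistant lines selected from each. Cells of all 4 groups were kept with 10% fetal bovine serum. Parental cells were kept in RPMI medium without drug, and the resistant cells were kept in docetaxel. Resistance and current exposure to the drug therefore cannot be told apart. Each group had 3 samples. Replicates 1 and 2 were hybridised to an Affymetrix array of 22215 probe sets (8 arrays), and replicate 3 to a larger array of 54613 probe sets (4 arrays). The labels do not say whether replicates were separate cultures, so the p-values below reflect spread between arrays that may be technical. How many clones make up each resistant line, and the docetaxel dose, is not stated in the labels.

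Keratins form the intermediate filaments of epithelial cells, and each filament is a heteropolymer of an acidic type I chain and a basic type II chain. KRT8 (type II) and KRT18 (type I) are the primary pair of simple epithelia such as the luminal cells of the prostate, and ductal epithelia add KRT7 (type II) and KRT19 (type I). KRT5 with KRT14 or KRT15 marks basal cells, KRT1 with KRT10, KRT4 with KRT13 and KRT3 with KRT12 belong to stratified epithelia, and a further set builds hair and nail. In the RefSeq annotation the type II genes lie together on chromosome 12 (27 keratin genes, 13 of them members) and the type I genes on chromosome 17 (28 genes, 19 of them members), except that KRT18 lies beside KRT8 on chromosome 12.

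The RefSeq promoter table (GRCh38.p14) held 22 of the 32 genes, with 23 windows of 250 bases before the start. It had no entry for KRT7, KRT18 or KRT19, so the motif counts below do not cover these genes. The windows of KRT8 and KRT10 are shown because these genes, 1 of each type, lay over the median of every array in all 4 groups, and that of KRT4 because its probe set was called below. Each is read 5′ to 3′ on the gene's strand, and capitals mark a TATAAA motif.
KRT8, chr12:52926470-52926719, minus strand: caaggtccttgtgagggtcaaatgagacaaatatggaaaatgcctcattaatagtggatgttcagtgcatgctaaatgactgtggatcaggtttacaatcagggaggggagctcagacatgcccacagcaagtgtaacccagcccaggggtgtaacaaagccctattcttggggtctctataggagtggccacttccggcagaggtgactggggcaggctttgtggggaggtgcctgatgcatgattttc
KRT10, chr17:40822615-40822864, minus strand: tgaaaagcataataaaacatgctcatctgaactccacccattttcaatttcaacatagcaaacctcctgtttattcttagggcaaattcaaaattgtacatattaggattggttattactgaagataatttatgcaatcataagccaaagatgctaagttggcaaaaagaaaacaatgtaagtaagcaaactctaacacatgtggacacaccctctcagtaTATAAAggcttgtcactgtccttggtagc
KRT4, chr12:52814117-52814366, minus strand: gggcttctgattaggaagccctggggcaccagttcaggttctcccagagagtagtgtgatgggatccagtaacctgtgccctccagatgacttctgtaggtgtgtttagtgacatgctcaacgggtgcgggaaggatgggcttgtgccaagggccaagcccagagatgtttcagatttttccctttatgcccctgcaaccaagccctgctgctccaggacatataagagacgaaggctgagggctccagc
The window of KRT10 has TATAAA with its first base 29 bases before the start, and its GC content is 34.8%. The windows of KRT8 (GC 50.4%) and KRT4 (GC 54.8%) hold no motif of those searched on both strands. The search was for 3 motifs. The first, TATAAA, is the core promoter element known by that sequence. The next was the E-box CACCTG, to which SNAI2 and ZEB1 bind. The last was the Sp1 motif GGGCGG. Over all keratin windows TATAAA was in 11 of 23 (47.8%), against 10.7% of the 35116 windows in the table. CACCTG was in 2 of 23 keratin windows (8.7%, against 17.5% of all), and GGGCGG in 4 of 23 (17.4%, against 42.6%). These matches describe letters in the windows, and no binding was measured.

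Levels were set within each array, because the DU145 and DU145-DR arrays of replicates 1 and 2 start from a raised floor: their 5th percentiles were 35.8 to 38.6, against 11.5 to 12.3 on the 22Rv1 and 22Rv1-DR arrays, and the tables of the 2 array types were made separately. The marker check of the lines was made by the same percentiles. KLK3, KLK2 and HOXB13, markers of prostate luminal cells, were over the array median on all 3 arrays of 22Rv1 and of 22Rv1-DR, and none of the 5 luminal markers measured was so in DU145 or DU145-DR. None of the 5 endothelial or 4 keratinocyte markers measured was over the median on all arrays of any group, and of 5 blood markers LCP1 alone was, in 22Rv1 and 22Rv1-DR. FBN1, 1 of 7 fibroblast markers, was over the median on all arrays of DU145-DR only, where it read 771, 370 and 471, against 116, 123 and 88.6 in DU145. The summed intensity of the 7 was 665 to 888 in DU145 and 973 to 1539 in DU145-DR on replicates 1 and 2, and without FBN1 it was 543 to 771 and 603 to 770. The sums of the 7 were 185 to 198 in 22Rv1 and 219 to 265 in 22Rv1-DR, and sums on these arrays carry the floor of each line. On replicate 3, which shares 1 floor, the sums were 305 in DU145, 666 in DU145-DR, 314 in 22Rv1 and 309 in 22Rv1-DR.

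A small set of keratins was high in these cells. KRT8, KRT10 and KRT18 were over the array median on all 3 arrays of all 4 groups. KRT19 was over it throughout DU145, 22Rv1 and 22Rv1-DR but not on 1 DU145-DR array, and KRT7 throughout DU145, DU145-DR and 22Rv1-DR but not on 1 array of 22Rv1. KRT83, a hair keratin, was over it on all 3 DU145 arrays, at the percentiles 50.5 to 54.2, and in no other group. The other 14 tested genes were over the median on all arrays of no group.

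**Figure D1:**
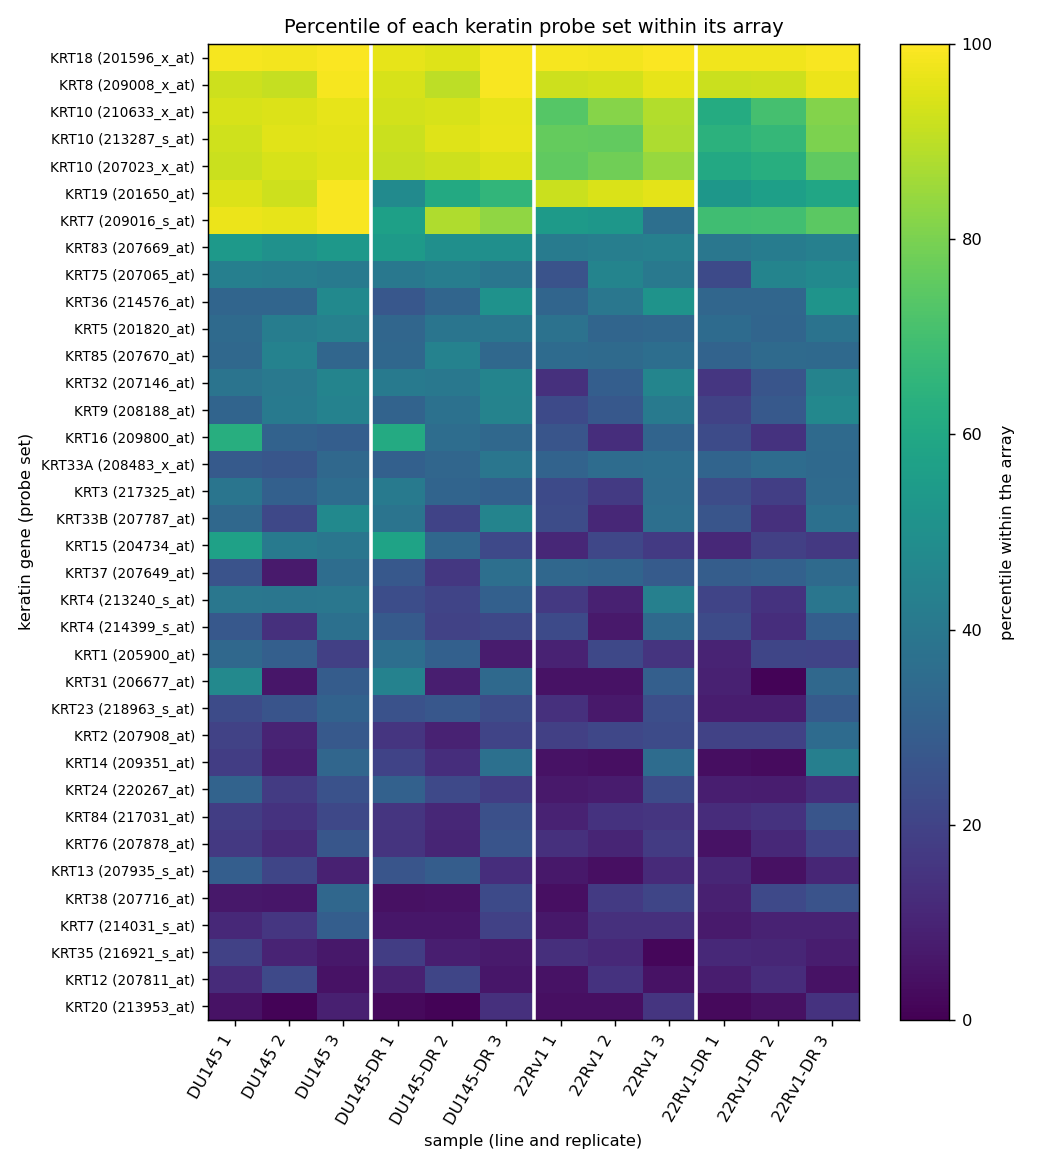
Percentile of each of the 36 keratin probe sets among all probe sets of its array (colour, 0 to 100), with the 12 arrays in columns by line and replicate and rows sorted by mean percentile for display. The probe sets of KRT8, KRT10 and KRT18 are bright in every column, KRT19 and 1 KRT7 probe set change colour between parental and resistant columns, and most rows stay below the median in every group.

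A filter on dim values kept genes whose mean intensity passed 74 in at least 1 group, and 20 of the 32 keratin genes passed. All 20 passed in DU145 or DU145-DR, whereas KRT7, KRT8, KRT10, KRT18 and KRT19 were the 5 that passed in 22Rv1 or 22Rv1-DR. The other 15 were thus tested in 22Rv1 only because of their DU145 values. The cut of 74 lay near the 25th percentile of the DU145 and DU145-DR arrays of replicates 1 and 2 (62.2 to 76.1). In DU145 those 15 lay at percentiles 6.21 to 62.5 over the 3 arrays, and read 15.6 to 46.5 on replicate 3. A fall of the dimmer ones in DU145-DR would also be hard to see. The 12 genes that did not pass were KRT2, KRT12, KRT13, KRT14, KRT20, KRT23, KRT24, KRT35, KRT37, KRT38, KRT76 and KRT84. Their intensities on replicates 1 and 2 were 29.2 to 96.3 in DU145, 29.2 to 89.3 in DU145-DR, 11.4 to 26.5 in 22Rv1 and 10.7 to 23.8 in 22Rv1-DR, and no value lay above percentile 43.2 of its array.

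In DU145-DR against DU145, the first question of the design, 3 of the 19 keratins that passed the filter in both groups fell (KRT19, KRT7 and KRT18). KRT4 was called lower as well. It passed the filter only through DU145, where it was dim but higher than in DU145-DR, so a call at this filter could only be lower. In all 4 of the 20 tested keratins were called lower, none rose and 16 did not pass the test. Other than KRT8 and KRT10, those 16 were dim or near the middle of the array in DU145, so a missing call tells little. The test was limma's moderated two-sided test on log2 of the intensity plus 16 over the 8 arrays, and genes with p under 0.05 after Benjamini-Hochberg adjustment over all 9711 tested were called; of these, 5.48% fell and 5.53% rose. In the simple epithelial group 3 of 4 tested genes fell (KRT7, KRT18 and KRT19, not KRT8), and in the differentiation group 1 of 5 (KRT4). None of the genes tested in the lists named basal (2), stress (1), hair and nail (7) and inner root sheath (1) passed. Type I and type II each held 2 of the falls, among 11 and 9 tested genes. The median change over the 20 keratins was -0.10 on the log2 scale, against -0.01 over all genes, and on the third pair, replicate 3 of each group with no test, it was -0.13 against -0.01. In bulk samples such as these, fewer cells with a keratin and less of its RNA per cell cannot be told apart. The count was 1 without replicate 1 or without replicate 2 of DU145, and 2 without any 1 array of 22Rv1 or 22Rv1-DR, which lend their spread to the test.

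In 22Rv1-DR against 22Rv1, KRT19 was the only keratin called. It is 1 of the 5 keratins that passed the filter in this line, and KRT7, KRT8, KRT10 and KRT18 did not pass the test. The other 15 tested keratins lay under the filter in both groups of this line, so a fall of theirs could hardly be seen, and none was called. Of all genes tested 2.43% fell and 3.13% rose. The change differed between the lines for 1 keratin, KRT7, whose change was higher in 22Rv1-DR than in DU145-DR; 4.48% of all genes tested differed in that direction. On the third pair, 3 keratins were lower by at least 1 on the log2 scale in DU145-DR (KRT7, KRT18 and KRT19, with 9.16% of all genes that much lower), and none was that much higher (9.41% of all genes). In 22Rv1-DR, KRT19 was lower by at least 1 (3.89% of all genes) and KRT7 higher by at least 1 (2.8% of all genes).

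**Figure D2:**
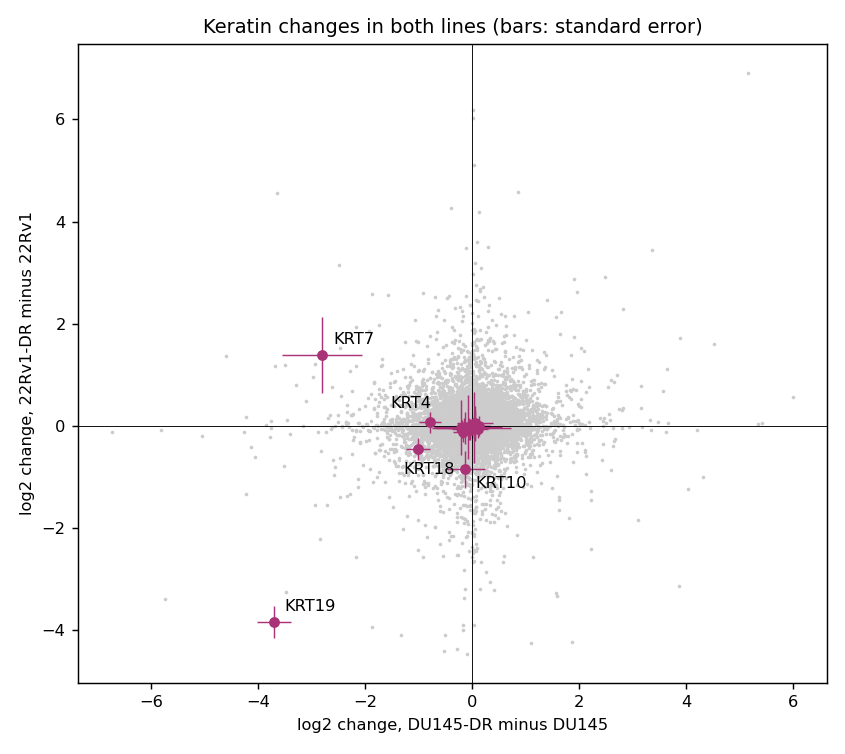
Log2 change in DU145-DR (x axis) and in 22Rv1-DR (y axis) for the 20 tested keratin genes (points, with bars of 1 standard error from limma over 8 arrays) and for all 9711 genes tested (grey). KRT19 lies at -3.70 and -3.83, KRT7 at -2.80 and 1.39, and most keratins lie near 0 on both axes.

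KRT19, the small type I keratin of ductal epithelia, fell in both lines. Its intensity was 3641 and 3444 in DU145, 181 and 365 in DU145-DR, 1252 and 1758 in 22Rv1, and 84.4 and 94.4 in 22Rv1-DR. All parental arrays lay far above both resistant groups, with no overlap within or across lines. Replicate 3 gave 5257 in DU145, 97 in DU145-DR, 1641 in 22Rv1 and 59.3 in 22Rv1-DR. The fall was 13.8-fold in DU145-DR (log2 change -3.70 ± 0.31, SE, n = 2 arrays per group, limma adjusted p = 0.000274) and 54.2-fold on the third pair. In 22Rv1-DR it was 16.6-fold (-3.83 ± 0.31, adjusted p = 0.000234) and 27.7-fold on the third pair. The changes differed between lines by -0.13 ± 0.44 (95% interval -1.14 to 0.87, limma adjusted p = 0.97). On the third pair, with no test, the difference was 1.08, of the other sign and outside that interval. The floors of replicates 1 and 2 differ between the lines, as given above. This limits every difference between the lines' changes given here, and its part was not tested. Within its arrays KRT19 went from percentiles 92.4 to 99 in DU145 to 48 to 65.8 in DU145-DR, and from 91.9 to 95.8 in 22Rv1 to 52.8 to 59.2 in 22Rv1-DR, so it ended near the middle of the array and not at the floor. Both calls held under all 12 alternatives and with each of 8 arrays left out. A second KRT19 probe set of the larger array (228491_at) read 14.9 to 19.6 in all 4 groups, at percentiles 19.3 to 30.4.

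At its locus KRT19 lies between KRT15 and KRT9 on chromosome 17. KRT15, a type I keratin of basal cells, changed by -0.21 in DU145-DR and -0.03 in 22Rv1-DR, and KRT9, a keratin of palm and sole, by -0.14 and -0.03. Neither neighbour passed the test in either line.

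KRT7, a type II keratin of ductal and glandular epithelia, moved in opposite directions in the 2 lines. Its probe set 209016_s_at read 5673 and 5955 in DU145 and 284 and 2304 in DU145-DR, and on replicate 3 it read 5793 and 388. The 2 tested DU145-DR arrays lay far apart (replicate 1 minus replicate 2, -2.95 on the log2 scale) yet both lay below every DU145 array. In 22Rv1 it read 88.6 and 71.5, and in 22Rv1-DR 244 and 228, with 23.3 and 181 on replicate 3. All 3 resistant arrays were above all 3 parental arrays of that line. The fall in DU145-DR was 7.19-fold (log2 change -2.80 ± 0.74, n = 2 arrays per group, limma adjusted p = 0.0457) and 14.9-fold on the third pair. The 22Rv1-DR values were 2.96-fold higher (1.39 ± 0.74, 95% interval -0.29 to 3.08, adjusted p = 0.434) and 7.78-fold higher on the third pair, and this did not pass. The difference between the lines' changes was 4.20 ± 1.05 (95% interval 1.81 to 6.59, adjusted p = 0.0454), and 6.17 on the third pair.

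The spread between the DU145-DR arrays enters all 3 KRT7 results. Without replicate 1 of DU145-DR the change was -1.33 (adjusted p = 0.00598), and without replicate 2 it was -4.28 (adjusted p = 9.76e-06). The call was lost without replicate 1 or 2 of DU145 (adjusted p = 0.176 and 0.187) and without any 1 array of 22Rv1 or 22Rv1-DR (0.0616 to 0.0715). It was also lost with a pseudocount of 1 (0.0534), with no filter (0.0797), with every probe set as a row (0.0535) and with the 4 arrays of the line alone (0.126), and it held under the other 8 of 12 alternatives. In 22Rv1-DR the rise passed once either DU145-DR array was out (adjusted p = 0.0014 and 0.0015) and in a fit of the 4 arrays of that line alone (0.00596). The difference between lines was 2.72 without replicate 1 of DU145-DR (adjusted p = 0.000542) and 5.67 without replicate 2 (2.16e-05), and it missed the threshold without replicate 1 or 2 of DU145 (0.13 and 0.14), of 22Rv1 (0.106 and 0.128) or of 22Rv1-DR (0.13 and 0.126).

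By percentile within the array, KRT7 was at 96.1 to 99.2 in DU145 and 57 to 88.2 in DU145-DR, against 36.6 to 54.3 in 22Rv1 and 69.3 to 74.7 in 22Rv1-DR. The 2 parental lines stood apart, and the 3 percentiles of 22Rv1-DR lay inside the range of those of DU145-DR. On replicate 3, which shares 1 floor, 22Rv1 minus DU145 was -7.21 on the log2 scale and 22Rv1-DR minus DU145-DR was -1.04. The other KRT7 probe set (214031_s_at) was near the floor, at or under the 25th percentile on both tested arrays of every group, with 37.3 to 49.5 in DU145 and DU145-DR and 12.8 to 14.8 in 22Rv1 and 22Rv1-DR. The larger array has 2 further KRT7 probe sets. On it 1558393_at read 42.5 in DU145, 25.3 in DU145-DR and 25.6 in both 22Rv1 groups, and 1558394_s_at read 9.85 to 15.8. The KRT7 result therefore rests on 1 of 4 probe sets.

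**Figure D3:**
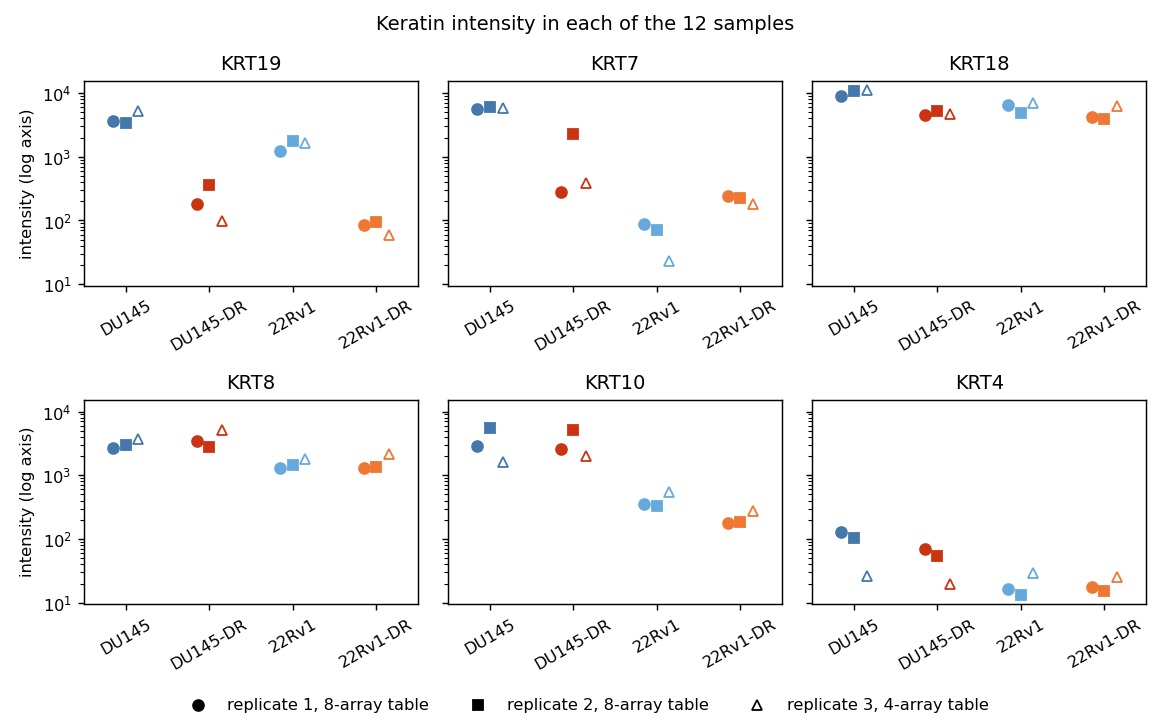
Intensity (log axis) of 6 keratin genes, 1 probe set each, in the 12 samples by group; filled circles and squares are replicates 1 and 2 of the 8-array table, open triangles replicate 3 of the 4-array table. KRT19 drops in both resistant lines, KRT7 drops in DU145-DR with 1 array at 2304 and the other two at 284 and 388, and KRT8 stays level. The KRT4 points of replicate 3 read 19.4 to 29.2 over the 4 groups.

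KRT18, the type I partner of KRT8, fell in DU145-DR while KRT8 did not pass. KRT18 intensity was 8841 and 10809 in DU145 and 4545 and 5185 in DU145-DR, with 11037 and 4673 on replicate 3. The 3 parental arrays were all higher than the 3 resistant ones. KRT18 fell 2.01-fold (log2 change -1.01 ± 0.22, n = 2 arrays per group, limma adjusted p = 0.0207), and 2.36-fold on the third pair. The call was lost without replicate 1 of DU145 (adjusted p = 0.0528), replicate 2 of DU145 (0.112) or replicate 1 of DU145-DR (0.0529), in the fit of 12 arrays (0.0772) and with the 4 arrays of the line alone (0.104). In 22Rv1 the values were 6517 and 4837, and in 22Rv1-DR 4211 and 3984, with 7033 and 6295 on replicate 3. These did not overlap on replicates 1 and 2, and the change of -0.45 ± 0.22 (adjusted p = 0.363) did not pass. The 2 lines' changes differed by 0.55 ± 0.31 (95% interval -0.14 to 1.25, limma adjusted p = 0.361), and by 1.08 on the third pair.

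KRT8 read 2702 and 2978 in DU145 and 3397 and 2759 in DU145-DR, and 3743 and 5149 on replicate 3. It read 1323 and 1428 in 22Rv1 and 1296 and 1351 in 22Rv1-DR, and 1808 and 2165 on replicate 3. Parental and resistant values of replicates 1 and 2 overlapped in both lines. The changes were 0.11 ± 0.19 (95% interval -0.32 to 0.54, adjusted p = 0.867) and -0.05 ± 0.19 (-0.49 to 0.38, adjusted p = 1), so the interval excludes a fall as large as 1 on the log2 scale in either line. Whether KRT18 changed more than KRT8 was not tested. KRT8 and KRT18, each read by 1 probe set whose name ends in _x_at, the mark Affymetrix gives to probes prone to cross-hybridization, are neighbours on chromosome 12 and were at percentiles 90 to 99 and 95.2 to 99.6 across the 12 arrays.

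KRT10, the type I keratin of upper stratified epithelia, did not pass in either line by its representative probe set, 213287_s_at. That probe set read 2856 and 5480 in DU145 and 2574 and 5078 in DU145-DR, with 1618 and 1992 on replicate 3. Replicate 1 minus replicate 2 was -0.94 and -0.98 on the log2 scale, so the replicates differed alike in both groups, and the change was -0.13 ± 0.37 (adjusted p = 0.949). In 22Rv1 it read 357 and 326, and in 22Rv1-DR 181 and 184, with 553 and 280 on replicate 3. All 22Rv1-DR arrays were below all 22Rv1 arrays. The change was -0.85 ± 0.37 (adjusted p = 0.305; -0.94 on the third pair), and it passed in a fit of the 4 arrays of that line alone (adjusted p = 0.0095).

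The other KRT10 probe sets moved the same way. In a fit with every probe set as a row, 207023_x_at (343 and 380 in 22Rv1, 144 and 142 in 22Rv1-DR, 419 and 191 on replicate 3) fell by 1.24 ± 0.27 with limma adjusted p = 0.0429; in that fit 1.88% of the 14811 probe sets fell. The same fit gave 210633_x_at -0.97 ± 0.33 (adjusted p = 0.189). In DU145-DR the 3 KRT10 probe sets gave -0.18 to -0.13 in the same fit, where 4.47% of probe sets fell, and none passed. The difference between the lines' changes was -0.72 ± 0.52 (95% interval -1.92 to 0.48, adjusted p = 0.534) by 213287_s_at. KRT1, the type II partner of KRT10 in epidermis, read 74.5 to 108 in DU145 and DU145-DR, was near the floor in 22Rv1 and 22Rv1-DR, and gave changes of 0.03 and -0.01 that did not pass.

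KRT4, a type II keratin of mucosal epithelia, was called lower in DU145-DR from dim values. Its mean log2 value was 7.06 in DU145 and 6.28 in DU145-DR, on either side of the filter at 6.49, so the gene was tested only because it was higher in DU145. With no filter it was called too (limma adjusted p = 0.0364). Probe set 213240_s_at read 131 and 105 in DU145 and 69.1 and 54.9 in DU145-DR, and 26.7 and 19.4 on replicate 3. The groups did not overlap on replicates 1 and 2, but both DU145-DR values were near the floor of their arrays (percentiles 23.5 and 20.4). The change was -0.78 ± 0.20 (limma adjusted p = 0.0387) and -0.27 on the third pair. The second KRT4 probe set (214399_s_at) read 82.1 and 46.5 in DU145 and 81.6 and 54.2 in DU145-DR, and these overlap. The call was lost with the mean of both probe sets (-0.35, adjusted p = 0.393), in the fit of 12 arrays (-0.61, 0.601), with a pseudocount of 64 (-0.53, 0.0553), with the 4 arrays of the line alone (0.2), and without replicate 1 of DU145 (0.167), replicate 2 of DU145 (0.0696), replicate 2 of DU145-DR (0.0957) or any 1 array of 22Rv1 or 22Rv1-DR (0.0813 to 0.0875). On replicates 1 and 2 of 22Rv1 and 22Rv1-DR both probe sets were near the floor. KRT13, the usual type I partner of KRT4, did not pass the filter.

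The basal keratins were low and gave no call. KRT5 read 107 and 123 in DU145, 95.7 and 101 in DU145-DR, 31.6 and 24.9 in 22Rv1 and 28.1 and 24.9 in 22Rv1-DR. Its changes were -0.19 ± 0.18 (adjusted p = 0.656) and -0.06 ± 0.18 (adjusted p = 1). KRT14 did not pass the filter and was near the floor on replicates 1 and 2 of all 4 groups. KRT15 read 296 and 116 in DU145 and 298 and 82.1 in DU145-DR, with the replicates further apart than the groups. KRT17 and KRT81 have no probe set under the rule and were not analysed here.

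KRT15, KRT16 and KRT31 shared a gap between replicates within DU145 cells. KRT16, a stress keratin of wounded and hyperproliferative epidermis, read 385 and 78.2 in DU145 and 355 and 89.9 in DU145-DR. KRT31, a hair keratin, read 181 and 37.3 in DU145 and 153 and 39.9 in DU145-DR. In all 3 genes replicate 1 was above replicate 2 by at least 1 on the log2 scale in parental and resistant cells alike (1.24 and 1.68 for KRT15, 2.09 and 1.81 for KRT16, 1.89 and 1.60 for KRT31). Such a gap, the same way in both groups, was seen in 3 of the 20 tested keratins and in 2.11% of the 9711 genes. In 22Rv1 and 22Rv1-DR it was seen in 0 of 20 keratins (0.412% of all genes). There 15 of the 20 lay under the filter in both groups, where such a gap could hardly be seen. On replicate 3 the 3 genes read 15.9 to 26.4 in DU145 and DU145-DR. Their standard errors in the change were 0.54, 0.70 and 0.63, against 0.18 to 0.37 for the other tested keratins except KRT7 (0.74), and their changes were -0.21, 0.03 and -0.07 in DU145-DR.

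**Figure D4:**
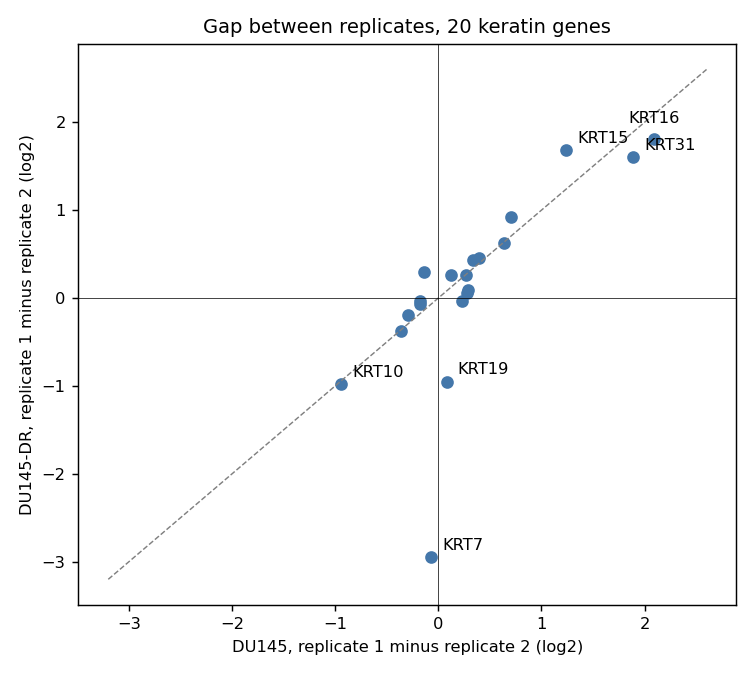
Replicate 1 minus replicate 2 on the log2 scale in DU145 (x axis) and in DU145-DR (y axis) for the 20 tested keratin genes (points); the dashed line marks equal gaps. KRT15, KRT16 and KRT31 lie at gaps over 1 in both groups, KRT10 near -0.94 and -0.98, and KRT7 is apart with gaps of -0.07 and -2.95.

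The remaining tested keratins had no call in either line. The 7 hair and nail keratins read 37.3 to 251 in DU145 and 39.9 to 251 in DU145-DR, and 11.7 to 38.6 in 22Rv1 and 9.71 to 37 in 22Rv1-DR, with changes of -0.16 to 0.14 and -0.12 to 0.05. KRT75, of the inner root sheath and nail bed, read 122 to 151 in DU145 and 119 to 125 in DU145-DR, and its changes were -0.13 and -0.04. KRT3, a corneal keratin, gave 0.06 and 0.01. Over the 16 keratins that did not pass in DU145-DR the changes ran from -0.21 (KRT15) to 0.14 (KRT33A), and on the third pair from -0.41 (KRT15) to 0.46 (KRT8).

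**Figure D5:**
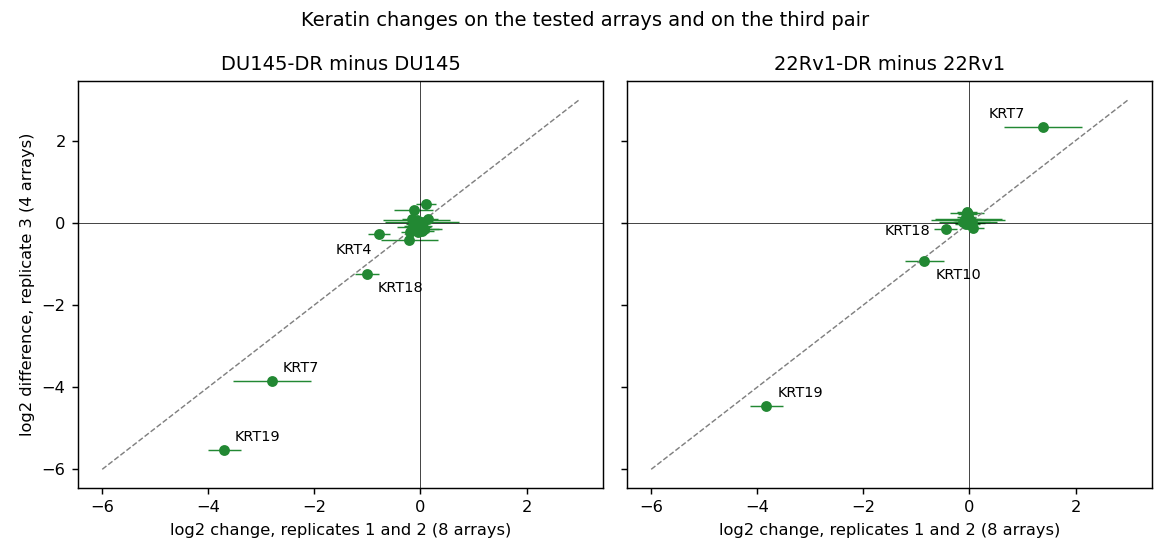
Log2 change on replicates 1 and 2 (x axis, bars of 1 standard error from limma) against the untested difference on replicate 3 (y axis) for the 20 tested keratins in each line; the dashed line marks equal values. KRT19 and KRT7 lie farthest from 0 in both panels, with larger sizes on replicate 3 (-5.54 and -3.85 in DU145-DR, -4.46 and 2.33 in 22Rv1-DR).

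The larger array also carried keratins outside the shared set, at 1 array per group and so with no test. In all it had 56 keratin probe sets of 44 genes. KRT80, a type II keratin next to KRT7 on chromosome 12, read 613 in DU145 and 309 in DU145-DR, a log2 difference of -0.95, and 21.7 and 16.7 in 22Rv1 and 22Rv1-DR. The probe sets of KRT25, KRT27, KRT40, KRT77, KRT79 and KRT222 read 9 to 21.6 in every group.

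Between the parental lines, all 20 tested keratins were lower in 22Rv1 than in DU145 on the deposited scale, where 79.6% of all genes tested were lower and the median of all genes was -1.31; the count is therefore no result about keratins. After quantile normalization 10 keratins passed the filter and 4 were lower in 22Rv1, against 23.1% of 8932 genes. KRT7 was lower (log2 change -4.70, limma adjusted p = 0.00182; -7.21 on replicate 3) and so was KRT10 (-2.24, adjusted p = 0.000451; -1.52 on replicate 3). KRT83 (-0.71, limma adjusted p = 0.0145) and KRT32 (-0.62, adjusted p = 0.0309) gave -0.47 and -0.04 on replicate 3. KRT32 lay at percentiles 13.8 and 30 in 22Rv1 and 15.8 and 26.5 in 22Rv1-DR. It thus passed the 40th-percentile filter only through DU145 cells, where it is higher, and its call among the 4 could hardly go the other way. For KRT8, KRT18 and KRT19 the direction depends on the scale: -1.04, -0.80 and -1.25 as deposited, 0.15, 0.02 and -0.08 after quantile normalization, 0.40, 0.64 and 0.19 with a common median, and -1.04, -0.65 and -1.67 on replicate 3. None of these 3 passed after either adjustment.

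Genes that attach or accompany keratin filaments were read from lists. For these and the lists below, which group carried a gene past the filter was not worked out. A call could therefore have had its direction set by the filter, as for KRT4. Of 14 tested linkers and partners, PPL and JUP fell and none rose in DU145-DR, and PPL and DSG2 rose and none fell in 22Rv1-DR; over all genes 5.48% fell in DU145-DR and 3.13% rose in 22Rv1-DR. The medians were -0.38 and -0.10, against -0.01 and 0.01 over all genes. In DU145-DR the count was 5 without replicate 1 of DU145-DR, and 1 without replicate 1 of DU145 or with the 4 arrays of the line alone. In 22Rv1-DR it was 1 without any 1 array of 22Rv1 or 22Rv1-DR. PPL (periplakin, which ties keratin filaments to desmosomes and the cell cortex) fell by 2.17 in DU145-DR (adjusted p = 0.000541), with -2.58 on the third pair, and rose by 1.94 in 22Rv1-DR (adjusted p = 0.00124), with 0.32 on the third pair. Its change differed between the lines by 4.11 ± 0.31 (adjusted p = 0.000199), with the signs that KRT7 also had. JUP (plakoglobin, of desmosomes and adherens junctions) fell by 1.19 in DU145-DR (adjusted p = 0.00819). DSG2 (a desmosomal cadherin) rose by 0.97 in 22Rv1-DR (adjusted p = 0.0396), with -0.80 on the third pair. DSC2 of the same list gave -0.16 in 22Rv1-DR and did not pass, with -4.04 on the third pair. None of 5 tested keratinocyte envelope genes passed in either line.

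Of 15 other intermediate filament genes, all tested, 3 rose and none fell in DU145-DR, where 5.53% of all genes rose. NEFL rose by 3.34 (adjusted p = 5.14e-05), NEFM by 1.43 (0.0164) and INA by 0.75 (0.043). These encode neuronal filament proteins, as do PRPH and NEFH of the same list, which gave -0.90 (0.117) and -0.09 (0.959) and did not pass. The count of 3 was 1 without replicate 1 or 2 of DU145 and with the 4 arrays of the line alone, and 2 without any 1 array of 22Rv1 or 22Rv1-DR. VIM, the mesenchymal filament vimentin, gave 0.64 ± 0.21 there (adjusted p = 0.0946), and in 22Rv1-DR it alone of the 15 was called, and fell (log2 change -1.02, adjusted p = 0.0263), with -0.10 on the third pair. Of all genes 2.43% fell there. No list member was called in 22Rv1-DR without any 1 of its own or the 22Rv1 arrays, and 3 were without replicate 1 or 2 of DU145-DR.

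Among 11 tested epithelial transcription factors, KLF4 and SNAI2 rose and KLF5 and ELF3 fell in DU145-DR, and KLF4 fell in 22Rv1-DR. Over all genes 5.53% rose and 5.48% fell in DU145-DR, and 2.43% fell in 22Rv1-DR. The count of 4 in DU145-DR was 1 without replicate 1 or 2 of DU145 and with the 4 arrays of the line alone, and 2 without any 1 array of 22Rv1 or 22Rv1-DR and in the fit of 12 arrays. The count of 1 in 22Rv1-DR was 3 without replicate 1 or 2 of DU145-DR. SNAI2, a repressor of epithelial genes that binds E-box sequences, rose by 5.35 ± 0.22 in DU145-DR (adjusted p = 7.73e-06; 2.81 on the third pair) and gave 0.03 in 22Rv1-DR. KLF5 and ELF3, activators in epithelia, fell by 1.51 (limma adjusted p = 0.038) and 0.98 (0.0331) in DU145-DR. KLF4 of the same list rose by 1.14 there (0.0235), with 0.81 on the third pair. In 22Rv1-DR KLF4 fell by 2.56 (0.000648), with -2.05 on the third pair. GRHL2, OVOL1, OVOL2 and ESRP1 gave -0.18 to -0.03 in DU145-DR and did not pass. On the third pair, with no test, they gave 0.11, -0.24, -0.80 and -0.88. ZEB1 gave 1.17 in DU145-DR (limma adjusted p = 0.0866), with 1.53 on the third pair, and did not pass. SNAI1 and TWIST1 gave 0.37 and 0.02 there, with -0.01 and 0.10 on the third pair, and did not pass. The 5 epithelial markers were EPCAM, CDH1, CLDN3, CLDN4 and CLDN7. On replicates 1 and 2 their summed intensity was 5024 to 6883 in DU145 and 714 to 838 in DU145-DR. It was 8078 to 8629 in 22Rv1 and 3721 to 4220 in 22Rv1-DR. On replicate 3 the sums were 5582 in DU145, 304 in DU145-DR, 10301 in 22Rv1 and 6003 in 22Rv1-DR. Between DU145 and DU145-DR, EPCAM read 2241 and 2759 against 402 and 553, and CDH1 2369 and 3641 against 38.6 and 40.2. CLDN7 read 144 and 280 against 80.4 and 93.1, and CLDN4 127 and 129 against 106 and 101. CLDN3 overlapped, with 143 and 74 against 86.8 and 50.6. On replicate 3 CLDN4 read 234 against 27.5 and CLDN3 121 against 14.7. The 5 did not move alike in 22Rv1-DR: EPCAM read 2419 on both 22Rv1 arrays and 2469 on both 22Rv1-DR arrays, and CLDN3 read 247 and 146 against 272 and 126. CDH1 read 2937 and 3126 against 269 and 284, CLDN4 556 and 617 against 96.3 and 81.6, and CLDN7 2469 and 1771 against 1113 and 760. The part of these genes, or of the fibroblast markers given above, in the keratin results was not tested.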

How the data were processed

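Total RNA of 12 samples in 4 groups of 3 was hybridised to 2 Affymetrix array types. The authors deposited 1 table of linear probe-set intensity for each type. The submitters' processing notes list MAS5 and RMA; which step each did, and its version, are not given in these sources.

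From the deposited intensity, log2(intensity + 16) was taken with no further normalization. A gene was read by its brightest probe set not ending in _x_at, where it had one, and kept if its mean passed log2 6.49, the 40th percentile, in at least 1 group. The 8 arrays were fitted by group in limma 3.58.1 (R 4.3.3, eBayes without trend or block), and p-values were adjusted by Benjamini-Hochberg. The fit was run on simulated data whose errors were independent between arrays. That run does not cover the correlation of same-numbered arrays within a line, given in the closing section. Folds are ratios of geometric means of intensity. The number of arrays limits the precision.

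The keratins, lists and markers were chosen with earlier results of these data known. By rule, full values are given for keratins called in either line or the difference, and for KRT5, KRT7, KRT8, KRT10, KRT14, KRT15, KRT17, KRT18, KRT19 and KRT81; of other lists, up to 4 called members are named. The alternatives changed the normalization, pseudocount, dim filter, probe set rule, trend, block or arrays used.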

Additional observations from a re-analysis of the deposited data

Results flagged for a closer look

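KRT7 stands out because its change differed between the lines by a test of the difference itself. The change in 22Rv1-DR minus the change in DU145-DR was 4.20 ± 1.05 on the log2 scale (limma adjusted p = 0.0454), and on the third pair, with no test, it was 6.17. The DU145-DR arrays of replicates 1 and 2 read 284 and 2304, the widest pair of this gene among the 4 groups. Groups here have 2 or 3 arrays, too few to look for single outlying samples.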

How the results depend on the processing

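KRT19 fell in both lines under all 12 alternatives and with each array left out. The counts over all genes moved most. Quantile normalization gave 1625 genes in DU145-DR, 1248 in the difference between lines and 4401 between the parental lines. The 4 arrays of a line alone gave 296 genes in DU145-DR (1 keratin, lower) and 1489 in 22Rv1-DR (3 keratins, 2 lower and 1 higher), and all 12 arrays gave 466 (2 keratins), 223, 290 and 4360 genes (13 keratins) in the 4 comparisons. With every probe set as a row 2 keratin probe sets passed in 22Rv1-DR, and 12380 probe sets passed between the parental lines. The KRT7 difference between lines was lost, leaving 0 keratins, with a pseudocount of 64 (adjusted p = 0.0639), no filter (0.0799), the mean of probe sets (0.0518) and every probe set as a row (0.0539), where limma's unadjusted p for KRT7 is 0.00344 in the fit as reported. Between the parental lines 32 keratins passed with no filter, 6 with the 60th percentile, 4 after quantile normalization and 3 with a common median, where 3841 genes passed in all.

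Some small changes took the other sign. With 12 arrays KRT10 was 0.01 in DU145-DR, and KRT5 was 0.01 and KRT8 0.05 in 22Rv1-DR. The KRT19 difference between lines was 0.10 after quantile normalization, 0.14 with a pseudocount of 64 and 0.27 with 12 arrays. Between the parental lines KRT18 and KRT8 were 0.02 and 0.15 after quantile normalization, and KRT18, KRT19 and KRT8 were 0.64, 0.19 and 0.40 with a common median. The cause of these shifts was not tested.

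With 1 array left out, the counts ran from 492 to 1489 genes and 1 to 3 keratins in DU145-DR, from 215 to 867 genes and 1 to 2 keratins in 22Rv1-DR, and from 318 to 1250 genes and 0 to 1 keratins in the difference. In DU145-DR, KRT10 then ran from -0.62 to 0.36, KRT15 from -1.05 to 0.63 and KRT8 from -0.04 to 0.26. In 22Rv1-DR, KRT15 ran from -0.10 to 0.05, KRT4 from 0 to 0.15, KRT5 from -0.16 to 0.05 and KRT8 from -0.11 to 0. The difference between lines ran from -0.65 to 1.02 for KRT15 and from -0.61 to 0.34 for KRT19. An arm left with 1 array is assumed to vary like the other groups.

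With a replicate block, a term for each line and replicate number, 3443, 2146 and 3079 genes passed in DU145-DR, 22Rv1-DR and the difference between lines, against 1069, 540 and 777 without it. Keratins called were 4, 3 and 3, with KRT10 (adjusted p = 0.00342) and KRT18 (0.0461) added in 22Rv1-DR, and KRT4 (0.00673) and KRT10 (0.0126) in the difference. Deviations of same-numbered arrays correlated across genes at 0.693 within DU145 cells and 0.792 within 22Rv1 cells, against 0.0688 to 0.123 between lines; genes are not independent, and no label ties a number to a batch. Signal over background limits KRT4 and the other dim keratins, whose values lie near the floor of their arrays.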
